A study of Mus musculus with 32 samples.

Results

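Lipid-associated macrophages are tissue macrophages that take up lipid and dying cells, break them down in lysosomes, and export the cholesterol. They are recognised by a shared set of genes that includes the lipid receptor gene *Trem2*. The 9 genes described here are *Trem2*, *Gpnmb*, *Spp1*, *Apoe*, *Abca1*, *Abcg1*, *Plin2*, *Cd9*, and *Lgals3*, and each was found as 1 row of a table of 22850 genes by its symbol. TREM2 binds lipids and lipoproteins and signals through the adaptor encoded by *Tyrobp*, APOE carries lipid out of the cell, and ABCA1 and ABCG1 pump cholesterol onto such particles under control of the nuclear receptors called LXRs.

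The genes were followed in 3 cell populations of dispersed βVEGF-A; MIP-GFP islets, namely MΦs, ECs, and β cells. All animals carried 3 transgenes on a C57BL/6 background: RIP-rtTA, in which the rat *Ins2* promoter drives the transactivator in β cells, TetO-VEGF-A, which encodes human VEGF-A, and MIP-GFP, in which the mouse *Ins1* promoter drives GFP. Doxycycline (Dox) in the drinking water therefore induced VEGF-A in β cells of these young adult mice. No Dox samples came from untreated animals, 1wk Dox samples from animals treated for 1 week, and 1wk WD samples from animals 1 week after withdrawal. No group without the transgenes was among the samples. The sort took CD11b+ cells as MΦs, CD31+ cells as ECs, and GFP+ cells with neither of these as β cells, and each sample pooled islets from several animals. The time points No Dox, 1wk Dox, and 1wk WD were represented by 4, 2, and 4 MΦ samples, by 4, 1, and 5 EC samples, and by 4, 5, and 3 β cell samples.

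All values are scores, the normalized expression of a gene as the authors deposited it, in whole numbers of 1 or more. Score totals per sample ran from 23465985 to 53441769, and the sequencing depth behind them is unknown. The sorts were checked against marker lists. The summed score of 11 macrophage genes was 347374 to 638059 in the MΦ samples, 513 to 942 in the EC samples, and 688 to 8609 in the β cell samples. The summed score of 9 monocyte and neutrophil genes was 23221 to 35467 in the MΦ samples and 9496 to 22526 in the EC samples, and 78 to 1947 in the β cell samples. In every EC sample *S100a9* and *Retnlg* of this list were at the lowest score, and the EC sum is not read as a share of such cells. Islet preparations at No Dox carried acinar RNA. In No Dox MΦs the acinar sum was 85282, 9971071, 19982, and 1690352 in replicates 1 to 4, whereas 1wk Dox MΦs had sums of 953 and 3004 and 1wk WD MΦs of 1417 to 173412.

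The genes lie on separate loci, with *Trem2* at chr17:48485726-48493472 and *Abcg1* at chr17:31194643-31252722 on the plus strand of mm9 and *Abca1* at chr4:53043659-53172767 and *Plin2* at chr4:86294290-86315964 on the minus strand. *Spp1* lies at chr5:104864137-104870069 on the plus strand, and *Apoe* at chr7:20281458-20284515 on the minus strand. *Gpnmb* at chr6:48986517-49020928 on the plus strand shares a chromosome with *Cd9* at chr6:125410284-125444809 on the minus strand. *Lgals3* lies at chr14:47987426-48005835 on the plus strand. All 9 coordinates are those of whole genes and are the same in GENCODE M1.

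Promoters were read from RefSeq on GRCm38.p6, a later build than the table, and 8 of the 9 genes matched. Those of *Trem2*, *Gpnmb*, and *Abca1* are shown because they hold matches to motifs of factors linked to macrophage activation or to cholesterol. Capitals mark the matches, and positions count from the first transcribed base as 1, with no position 0. The *Trem2* stretch is chr17:48346321-48346400 on the plus strand, the *Gpnmb* stretch is chr6:49036458-49036537 on the plus strand, and the *Abca1* stretch is chr4:53159896-53160055 on the minus strand.
Trem2: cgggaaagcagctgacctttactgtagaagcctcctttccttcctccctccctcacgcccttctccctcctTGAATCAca
Gpnmb: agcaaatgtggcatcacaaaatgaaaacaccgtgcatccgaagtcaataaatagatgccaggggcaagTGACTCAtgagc
Abca1: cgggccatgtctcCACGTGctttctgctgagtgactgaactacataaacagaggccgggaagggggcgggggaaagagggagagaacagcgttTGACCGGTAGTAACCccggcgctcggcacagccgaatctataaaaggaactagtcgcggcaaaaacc

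The match in *Trem2*, at positions -9 to -3, and that in *Gpnmb*, at positions 9 to 15, fit the AP-1 motif TGANTCA, which 7.81% of 32851 mouse promoters hold on either strand. The match at positions -147 to -142 of *Abca1* is the E-box CACGTG, held by 7.15% of promoters, and *Plin2* has another. The longer match in *Abca1*, at positions -67 to -53, is the reverse complement of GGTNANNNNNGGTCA, a form of the DR4 repeat that LXR partners bind. The letters of that repeat were chosen after the sequence was seen, and 0.207% of promoters, 68 in all, hold it. The motifs do not overlap, and a match of letters is not evidence of binding.

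The levels in untreated islets were compared between the cell types first. Of the 9 genes, 6 were higher in MΦs than in β cells, beside 43.2% of all 16380 genes counted in either direction and 19.7% counted as higher. Against ECs 6 were higher in MΦs as well, beside 33.5% in either direction and 17.6% higher. Throughout, counted means at least a 2-fold change with an adjusted p under 0.05 (Benjamini-Hochberg, over all genes tested), from limma on log2(score + 1). *Trem2*, *Apoe*, *Lgals3*, and *Plin2* were counted against both cell types. The samples hold many cells, so fewer cells of a type and less RNA per cell cannot be told apart.

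*Trem2* was an MΦ gene in these samples. Its No Dox score was 1540, 1823, 1791, and 2407 in MΦs, 1, 1, 1, and 15 in β cells, and 3, 2, 3, and 1 in ECs. The MΦ samples stood far above all others, and no fold is given because the other cell types were at or near the lowest score. *Trem2* passed the filter on low scores through the MΦ samples alone, so its place among the 6 counted genes is a description and no p is given.

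*Apoe* and *Lgals3* were also concentrated in MΦs. *Apoe* scored 55615, 66244, 47702, and 104445 in MΦs, 168, 19, 1629, and 5274 in β cells, and 135, 168, 164, and 131 in ECs. That is 159-fold above β cells (log2 difference 7.31, SE 1.30, adjusted p = 0.000545, limma) and 438-fold above ECs (8.77, SE 1.30, adjusted p = 0.000161, limma). The first value rests on unlike β cell samples, and the log2 difference was 5.85 without β cell replicate 2, 7.97 without replicate 3, and 8.53 without replicate 4. *Lgals3* encodes galectin-3, a lectin that binds β-galactosides and gathers at damaged lysosomes. Its score was 4244, 4169, 5123, and 5637 in MΦs, 3, 1, 178, and 238 in β cells, and 44, 35, 41, and 36 in ECs, with no overlap of MΦs with either. The difference from ECs was 119-fold (6.90, SE 1.32, adjusted p = 0.00107, limma).

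*Plin2*, which coats lipid droplets, and *Gpnmb*, a glycoprotein of lysosome-rich macrophages, differed in how far they marked MΦs. *Plin2* scored 7851, 6846, 9895, and 8956 in MΦs, 26.9-fold above β cells (4.75, SE 0.51, adjusted p = 1.41e-05, limma) and 6.13-fold above ECs (2.62, SE 0.51, adjusted p = 0.00129, limma). *Gpnmb* scored only 183, 78, 70, and 78 in MΦs. ECs, at 2, 1, 2, and 3, were all lower. Those scores are at or next to the lowest possible, so *Gpnmb* counts among the 6 genes higher than in ECs only as a description, with no fold or p. β cells overlapped with MΦs, because replicates 1 and 2 were at 1 and replicates 3 and 4 were at 147 and 323 (adjusted p = 0.233, limma).

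The cholesterol transporters and the tetraspanin gene *Cd9* were expressed in all 3 cell types. *Abca1* scored 15405, 13133, 13996, and 13515 in MΦs and 16990, 17221, 8629, and 6766 in β cells, an overlap with a log2 difference of 0.29 (95% interval -0.30 to 0.88, adjusted p = 0.382, limma). ECs, at 4000, 4765, 4646, and 5232, were below both, with MΦs 3.01-fold higher (adjusted p = 0.00046) and β cells 2.46-fold higher (adjusted p = 0.00189, limma). *Abcg1* scored 3972 to 4447 in MΦs, 2879 to 3716 in ECs, and 910 to 1675 in β cells. It was 3.37-fold higher in MΦs than in β cells (adjusted p = 9.57e-06, limma), and MΦs were not counted above ECs (1.31-fold, adjusted p = 0.0995, limma). *Cd9* scored 2437 to 3381 in MΦs and 3266 to 3814 in ECs, which did not differ by the test (adjusted p = 0.792), and 56 to 1238 in β cells, 15.1-fold below ECs (log2 difference 3.92, adjusted p = 0.00113, limma). The last difference was 3.25 without β cell replicate 1 and 4.73 without replicate 4. ECs differed from β cells in 4 of the 9 genes, with *Cd9*, *Plin2*, and *Abcg1* higher and *Abca1* lower, beside 37.7% of all genes. The 3 cell types shared a fit, so the spread of the β cell samples enters the tests of MΦs against ECs too. Across the alternatives other than left-out samples, the adjusted p of MΦs against ECs ran from 0.0118 to 0.264 for *Abcg1*. It ran from 0.0756 to 0.819 for *Cd9* (limma), and both genes stayed short of 2-fold.

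*Spp1*, which encodes the secreted integrin and CD44 ligand osteopontin, was the only member not counted in any comparison of cell types. Its score at No Dox ranged from 263 to 1387 in MΦs, 21 to 1334 in β cells, and 7 to 400 in ECs. The 3 ranges overlapped. MΦs against β cells gave a log2 difference of 0.90 (adjusted p = 0.609) and MΦs against ECs 2.81 (adjusted p = 0.131, limma). The latter was 1.74 without EC replicate 1 and 3.62 without EC replicate 2, and the former was -0.31 without β cell replicate 2.

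**Figure D1:**
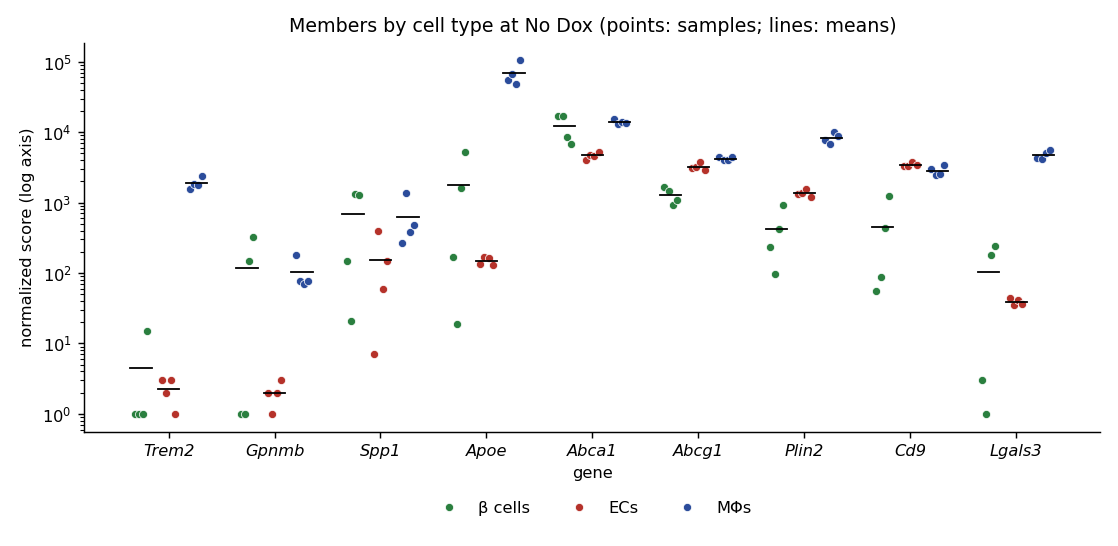
Normalized score (log axis) of the 9 genes at No Dox in sorted β cells (green), ECs (red), and MΦs (blue), with 4 samples per cell type as points and their mean as a line. *Trem2*, *Apoe*, *Abcg1*, *Plin2*, and *Lgals3* MΦ samples lie above all other samples, whereas *Spp1* overlaps across the cell types.

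Some of these genes differed in MΦs between 1wk Dox and No Dox. Of the 9 genes, *Lgals3* was counted at 1wk Dox against No Dox, beside 2.26% of all 15014 genes tested and 1.61% counted as higher. *Trem2*, *Abca1*, and *Cd9* had an adjusted p under 0.05 at a fold change below 2, which makes 4 of 9 at any fold, beside 4.58% of genes. The groups did not overlap for 5 of the 9 genes, beside 30.9% of genes, and the median log2 difference was 0.58 over the 9 genes and 0.03 over all genes. The 1wk Dox group held 2 samples, replicates 4 and 5. Their columns carry numbers from a separate run, apart from those of all other MΦ samples, and what the numbering reflects is not stated. In MΦs 1wk Dox and this numbering cannot be told apart.

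*Lgals3* rose in MΦs at 1wk Dox. The 1wk Dox samples scored 11556 and 9213, both above every No Dox sample, whose highest was 5637. The rise was 2.17-fold (log2 difference 1.12, SE 0.20, adjusted p = 0.0125, limma). It was not counted without 1wk Dox replicate 4 (0.95, adjusted p = 0.364) or without replicate 5 (1.28, adjusted p = 0.0596), where a single sample is assumed to vary like the others. The call was also lost with no trend of the spread (adjusted p = 0.0658) and with a fit of the 2 groups alone (0.052).

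*Trem2* scored 4282 and 3176 at 1wk Dox, above the No Dox maximum of 2407. The ratio was 1.98 (0.98, SE 0.20, adjusted p = 0.0205, limma), just under the 2-fold minimum, and it passed without No Dox replicate 4 (1.11, adjusted p = 0.0141). Its adjusted p rose to 0.47 without 1wk Dox replicate 4 (0.77), to 0.0665 without replicate 5 (1.20), to 0.0787 with no trend, and to 0.0831 with the 2 groups alone. *Gpnmb* had the largest ratio of the 9 genes. It scored 525 and 515 at 1wk Dox, where No Dox samples ran from 70 to 183, so the groups were apart, but at 5.48-fold its adjusted p was 0.0963 (2.45, SE 0.79, limma). Its value at 1wk WD was widely spread, and without 1wk WD replicate 1, which enters only the shared estimate of the spread, the same difference had an adjusted p of 0.0161. Without any other single sample its adjusted p was 0.0937 to 0.638.

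The other genes went in different directions. *Abca1* scored 21563 and 20258 at 1wk Dox and was 1.49-fold above No Dox (0.58, SE 0.13, adjusted p = 0.0322, limma), with no overlap. The adjusted p was above 0.05 without either 1wk Dox sample (0.484 and 0.164), without No Dox replicate 4 (0.055) or 1wk WD replicate 3 (0.0567) or 4 (0.0578), without the 2 No Dox samples with the highest acinar sums (0.0503), with no trend (0.0833), and with the 2 groups alone (0.115). *Cd9* was the member that went down, with 1457 and 1506 at 1wk Dox against 3019, 2437, 2515, and 3381 at No Dox. Its ratio was 0.527 (log2 difference -0.92, SE 0.19, adjusted p = 0.0205, limma), again short of 2-fold. Its adjusted p was 0.375 without 1wk Dox replicate 4, 0.133 without replicate 5, 0.0754 with no trend, and 0.0738 with the 2 groups alone.

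*Spp1*, *Apoe*, *Abcg1*, and *Plin2* overlapped between No Dox and 1wk Dox. *Spp1* was 519 and 1424 at 1wk Dox, and a No Dox sample reached 1387. The log2 differences were 0.75 for *Spp1* (95% interval -0.54 to 2.05), 0.41 for *Apoe* (-0.18 to 1.01), 0.01 for *Abcg1* (-0.29 to 0.31), and 0.27 for *Plin2* (-0.09 to 0.63), with adjusted p from 0.388 to 0.985 (limma). The *Spp1* value rested on single samples, at 0.026 without 1wk Dox replicate 5 and 1.48 without replicate 4.

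Markers of other cells moved with this comparison. Acinar sums did not overlap between the groups, with 19982 as the lowest No Dox sum and 3004 as the highest with Dox, and their part in the result was not tested as a cause. Leaving out the 2 No Dox samples with the highest acinar sums, replicates 2 and 4, a choice made after seeing the data, *Lgals3* remained counted (1.15, adjusted p = 0.0142) and *Trem2* passed as well (1.15, adjusted p = 0.00924, limma). *Apoe* moved to 0.76 (adjusted p = 0.0438) and *Spp1* to 1.43 (adjusted p = 0.101, limma), and neither was counted. The differences of *Gpnmb*, *Abca1*, *Cd9*, and *Plin2* became smaller in size. The summed macrophage markers were 347374 to 441687 in No Dox samples and 525200 and 638059 after Dox, with 2 of 11 counted as higher and a median log2 difference of 0.62. That is close to the median of the 9 genes, and its part in their change was not tested. Other lists that did not overlap were monocyte and neutrophil genes (28278 to 35467 at No Dox, 23221 and 26464 with Dox), duct genes (2941 to 6760, then 1107 and 2417), lymphocyte genes (208 to 354, then 121 and 122), and endothelial genes (1758 to 2432, then 3456 and 4286). Of 6 dendritic cell genes, 1 was counted as higher. Their part was not tested.

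**Figure D2:**
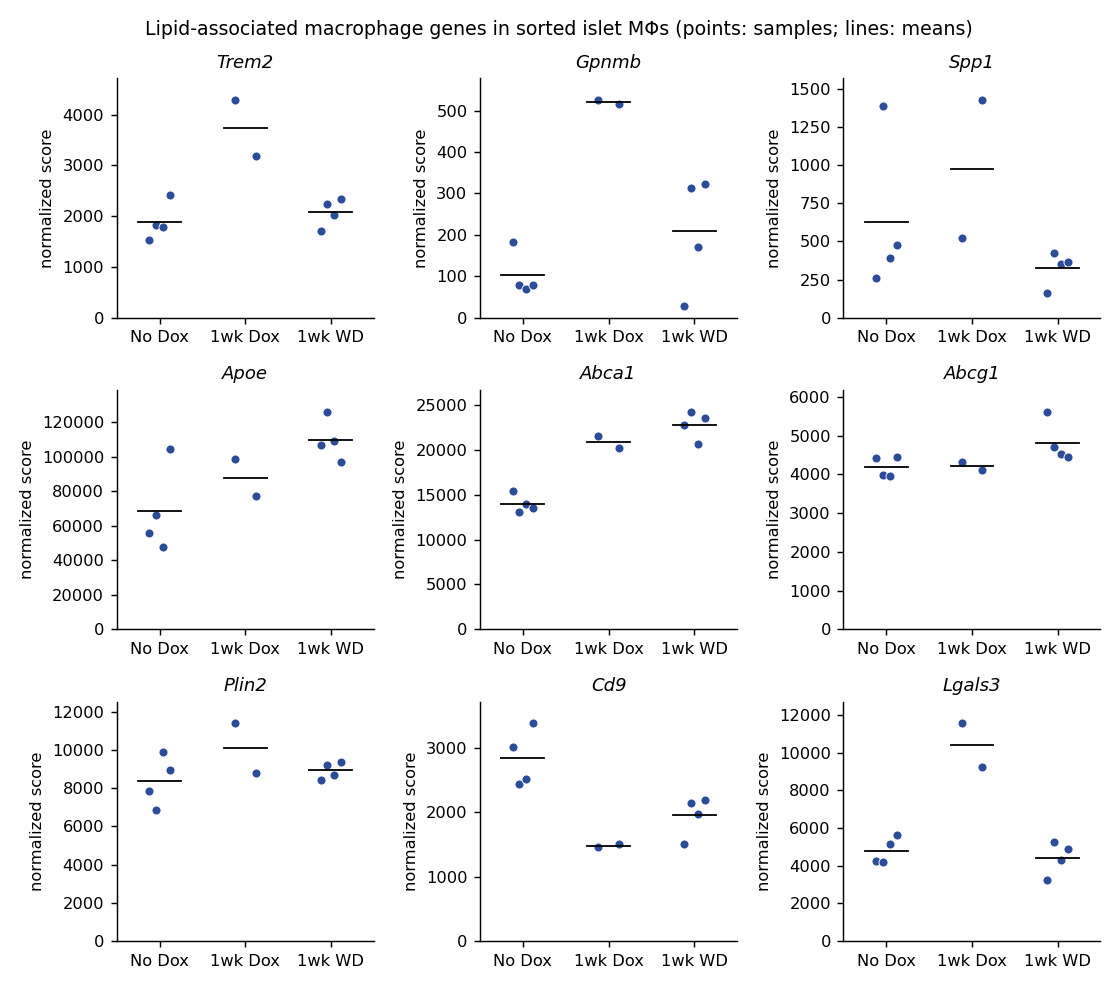
Normalized score of the 9 genes in sorted MΦs by time point (4, 2, and 4 samples from left to right), each axis from 0, with samples as points and means as lines. *Lgals3*, *Trem2*, and *Gpnmb* are above all No Dox samples at 1wk Dox, *Cd9* is below them, and *Abca1* is above them at both later time points.

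The 1wk WD samples addressed what remained after VEGF-A was withdrawn. None of the 9 genes was counted against No Dox by limma, beside 0.626% of genes, with 3 of 9 at an unadjusted p under 0.05, beside 17.3% of genes. *Abca1* alone had an adjusted p under 0.05, beside 1.23% of genes. It scored 22835, 24257, 20697, and 23550, all above the 4 No Dox samples. The ratio was 1.63 (log2 difference 0.70, SE 0.11, adjusted p = 0.0133, limma), below 2-fold. The adjusted p was above 0.05 without 1wk WD replicate 2 (0.0571) or 4 (0.0543) and with no trend (0.0759). This comparison shares its No Dox samples with that of 1wk Dox. The summed macrophage markers also lay above every No Dox sample, at 494667 to 590630 against 347374 to 441687, with 0 of 11 counted and a median log2 difference of 0.56. Duct marker sums lay below every No Dox sample, at 1320 to 2200 against 2941 to 6760, with 0 of 6 counted and a median log2 difference of -1.36. The part of either list in the *Abca1* and *Apoe* values was not tested.

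*Apoe* scored 107130, 126151, 109395, and 97213 at 1wk WD. Those values overlapped with No Dox only through replicate 4 there, at 104445. The ratio was 1.67 (0.74, SE 0.22, adjusted p = 0.116, limma). Without the No Dox samples of high acinar sums, replicates 2 and 4, it was counted (1.09, adjusted p = 0.0211), and the part of acinar RNA in this value was not tested.

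*Cd9* scored 1500, 2149, 1974, and 2185 at 1wk WD, all below the No Dox samples, at a ratio of 0.687 (-0.54, SE 0.16, adjusted p = 0.0995, limma). *Abcg1*, at 5619, 4703, 4520, and 4450, also lay wholly outside its No Dox range, by a ratio of 1.14 (adjusted p = 0.401). These 2 genes and *Abca1* were the 3 of 9 whose groups did not overlap, beside 9.24% of all genes. *Trem2*, *Gpnmb*, *Spp1*, *Lgals3*, and *Plin2* overlapped with No Dox, at log2 differences from -0.73 to 0.67.

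*Lgals3* fell again between 1wk Dox and 1wk WD, and the separate column numbering of the 1wk Dox samples applies here too. Its 1wk WD scores were 3218, 5231, 4271, and 4856, all below 9213, the lower of the 1wk Dox samples. The fall was 2.39-fold (log2 difference -1.25, SE 0.20, adjusted p = 0.0462, limma), and *Lgals3* was the only 1 of the 9 genes counted, beside 0.0866% of all genes and 0.0666% counted as lower. The call was close to the threshold and was lost without any 1 of 8 of the 10 MΦ samples, No Dox replicates 1 and 4 and every 1wk Dox and 1wk WD sample, at adjusted p from 0.0523 to 1. *Trem2*, at 1712, 2230, 2030, and 2330, also lay below both 1wk Dox samples (-0.84, SE 0.20, adjusted p = 0.176, limma). *Gpnmb* was 29, 313, 171, and 322 (-1.78, SE 0.79, adjusted p = 0.491) and *Spp1* 162, 422, 353, and 363 (-1.49, SE 0.60, adjusted p = 0.43, limma). The *Gpnmb* difference was -1.01 without 1wk WD replicate 1, and that of *Spp1* was -2.21 without 1wk Dox replicate 4 and -0.76 without replicate 5. Marker sums that did not overlap between 1wk Dox and 1wk WD were those of endothelial genes (3456 and 4286, then 2096 to 3123), β cell genes (8124 and 17698, then 3567 to 6855), and lymphocyte genes (121 and 122, then 284 to 895), while macrophage sums overlapped, and their part in the *Lgals3* fall was not tested.

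Related genes of each pathway were examined in the same fits. Of 9 genes of TREM2 signalling, 2 rose at 1wk Dox in MΦs, beside 1.61% of all genes counted as higher. *Tyrobp*, the adaptor that passes on the TREM2 signal, went from 12060 ± 3960 (SD, n = 4) to 23518 ± 4370 (SD, n = 2), a 2.01-fold rise (adjusted p = 0.035, limma). *Ms4a6d* rose 2.24-fold (adjusted p = 0.00776, limma). None of the 9 was counted at 1wk WD against No Dox, beside 0.626% of all genes. *Tyrobp* lost its call without any 1 of 6 of the 10 MΦ samples, through an adjusted p up to 0.558 or a change short of 2-fold, and *Ms4a6d* without 1wk Dox replicate 4 (0.304).

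Of 25 other genes linked to lipid-associated macrophages, 9 rose and 0 fell at 1wk Dox, beside 1.61% of all genes counted as higher and 2.26% in either direction. The median log2 difference was 0.80 over the list, 0.62 over the 11 macrophage markers, and 0.03 over all genes. The count of 9 was 0 without 1wk Dox replicate 4 and 2 without replicate 5, and 2 with no trend or with the 2 groups alone. *Fabp5*, a fatty acid carrier, went from 126 ± 75.1 (SD, n = 4) to 506 ± 25.5 (SD, n = 2), 4.57-fold (adjusted p = 0.0404, limma). *Lpl*, which releases fatty acids from lipoproteins, rose 2.98-fold (adjusted p = 0.0015), *Ctsb*, a lysosomal protease, 3.02-fold (adjusted p = 0.00131), and *Igf1*, a growth factor, 3.11-fold (adjusted p = 0.0101, limma). At 1wk WD 0 of the 25 were counted as higher than at No Dox, and 2 were higher at any fold. As lower 1 was counted, namely the matrix metalloprotease gene *Mmp12* (-1.19, SE 0.23, adjusted p = 0.0301, limma). Of all genes, 0.626% were counted in either direction and 1.23% had an adjusted p under 0.05 at any fold. Both *Lpl* (-1.08, adjusted p = 0.0462) and *Mmp12* (-1.90, adjusted p = 0.0331) fell from 1wk Dox to 1wk WD (limma), beside 0.0866% of all genes counted and 0.0666% counted as lower. The 1wk WD call of *Mmp12* was lost without any 1 of 7 of the 10 MΦ samples (adjusted p up to 0.112), and these falls without any 1 of 8 for *Lpl* and 6 for *Mmp12*, both 1wk Dox samples included.

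The remaining pathways gave 0 to 2 calls each at 1wk Dox in MΦs, beside 1.61% of all genes counted as higher and 2.26% in either direction. Of 17 genes of LXR and cholesterol efflux, *Nr1h3*, which encodes LXRα, rose from 206 ± 61.4 (SD, n = 4) to 620 ± 101 (SD, n = 2), 3.09-fold (adjusted p = 0.0181, limma). Of 15 lipid droplet genes, *Hilpda*, an inhibitor of droplet lipolysis, rose 3.32-fold (adjusted p = 0.0314, limma). Among 7 other galectin genes, *Lgals3bp*, which encodes a galectin-3 binding glycoprotein, rose 2.94-fold (adjusted p = 0.0031) and *Lgals1* 2.58-fold (adjusted p = 0.0258, limma). Of 9 tetraspanins *Cd63*, a lysosomal relative of *Cd9*, rose 2.65-fold (adjusted p = 0.0115, limma), opposite in sign to *Cd9*. The 9 osteopontin receptors and 5 other TREM genes gave 0 calls by limma, with 1 receptor higher and 1 lower at an adjusted p under 0.05 and any fold, beside 4.58% of genes. *Lgals1* and *Cd63* are also among the 25 genes above. Over all lists 14 related genes were counted as higher, of which 3 remained counted with no trend and 4 with the 2 groups alone. Of the 14 related genes counted as higher at 1wk Dox, 0 remained counted without 1wk Dox replicate 4 and 4 without replicate 5, all 14 with the same sign, and all 14 remained counted without the 2 No Dox samples with the highest acinar sums.

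ECs had 1 member that was counted at 1wk WD against No Dox. *Abca1* scored 12111, 11350, 8948, 10944, and 13236 at 1wk WD, against 4000, 4765, 4646, and 5232 at No Dox. All 5 samples lay above all 4. The rise was 2.42-fold (log2 difference 1.27, SE 0.12, adjusted p = 0.00077, limma), and *Abca1* was counted whichever library was left out, at 1.20 to 1.36. It was the 1 called of 7 genes tested, beside 1.76% of 14167 genes and 1.28% counted as higher.

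*Trem2* and *Gpnmb* were below the filter in ECs and were not tested. *Trem2* was at the lowest score in all 1wk WD samples, and *Gpnmb* was 1 or 2 except for 18 in replicate 4. *Plin2* scored 1101, 1222, 1143, 801, and 922 at 1wk WD against 1199 to 1560 at No Dox (-0.40, SE 0.14, adjusted p = 0.141, limma). *Lgals3* scored 27, 42, 9, 11, and 14 against 35 to 44 (-1.11, SE 0.50, adjusted p = 0.218, limma). *Spp1*, *Apoe*, *Abcg1*, and *Cd9* overlapped, at log2 differences from -0.15 to 0.40 and adjusted p of 0.455 or more. Summed pericyte and stromal markers ran from 5571 to 12475 at No Dox and 16494 to 69738 at 1wk WD, with 3 of 8 counted as higher, and acinar sums from 55047 to 1483677 and from 662 to 53006. Endothelial marker sums were lower at 1wk WD, at 409477 to 475942 against 553230 to 586872, also with no overlap. Their part in the *Abca1* rise was not tested.

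The single 1wk Dox EC sample was compared without a test. Its column belongs to the same separate run of numbers as those of the 1wk Dox MΦ samples. None of the 7 genes over the filter differed 2-fold from the No Dox mean, beside 10.7% of genes, and 6 lay outside the No Dox range, beside 62.1%. *Abca1* stood at 5727 (0.30 on the log2 scale) and *Abcg1* at 4594 (0.52), both above the No Dox samples. *Apoe* at 91 (-0.70), *Lgals3* at 31 (-0.32), *Plin2* at 1154 (-0.23), and *Cd9* at 3170 (-0.12) were below them.

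In ECs at 1wk WD, 2 of 21 other lipid-associated macrophage genes were counted as higher, beside 1.28% of all genes. *Igf1* went from 5822 ± 1320 (SD, n = 4) to 12275 ± 823 (SD, n = 5), 2.15-fold (adjusted p = 0.00335, limma). *Axl*, a receptor for dying cells, rose 3.35-fold (adjusted p = 0.0456, limma). The pericyte and stromal, acinar, and endothelial sums given above moved with these genes too, and their part was not tested. *Axl* lost its call without any 1 of 7 of the 9 EC samples (adjusted p up to 0.144), and *Igf1* fell short of 2-fold without No Dox replicate 1 (0.92). None of the 15 genes of LXR and cholesterol efflux was counted, beside 1.76% of all genes in either direction.

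*Abca1* was counted at 1wk WD in ECs and not in MΦs, where it was 1.63-fold above No Dox, and the 2 responses were compared directly. The MΦ response minus the EC response was -0.57 (SE 0.15, adjusted p = 0.051, limma). That did not pass the test, with a 95% interval from -0.89 to -0.25 before adjustment, and the adjusted p ran from 0.0204 to 0.105 as single samples were left out. None of the 9 genes was counted for this difference by limma, beside 1.77% of 15685 genes, with 3 of 9 at an unadjusted p under 0.05, beside 22.5%. *Trem2* and *Gpnmb* passed the filter there through MΦs.

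**Figure D3:**
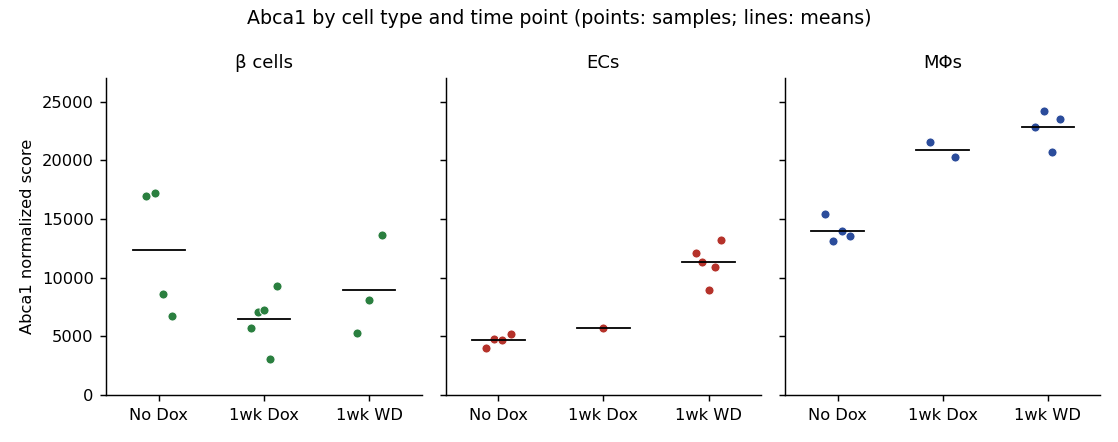
*Abca1* normalized score by time point in β cells, ECs, and MΦs, on a common axis from 0, with samples as points and means as lines. EC samples at 1wk WD (8948 to 13236) lie above those at No Dox (4000 to 5232), and MΦ samples at 1wk WD (20697 to 24257) above those at No Dox (13133 to 15405), whereas β cell samples overlap.

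**Figure D4:**
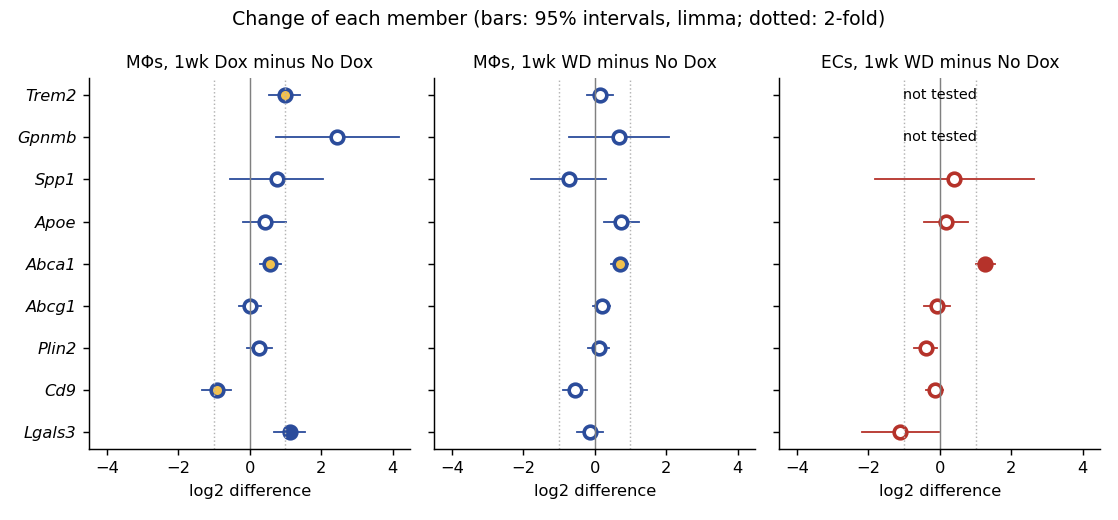
Log2 difference of each gene with its 95% interval (limma) in MΦs at 1wk Dox and 1wk WD and in ECs at 1wk WD, each minus No Dox. Filled circles are counted genes, yellow circles have an adjusted p under 0.05 below 2-fold, open circles neither, and dotted lines mark 2-fold: *Lgals3* in MΦs at 1wk Dox and *Abca1* in ECs at 1wk WD are filled.

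In β cells none of the 8 genes tested was counted by limma in any comparison, and *Trem2* was below the filter. Over all genes the shares counted were 0.0122% for 1wk Dox against No Dox and 0% for 1wk WD against either of the other time points. At an unadjusted p under 0.05 there were 3, 1, and 0 members, beside 6.99%, 8.17%, and 6.31% of all 16346 genes. The No Dox β cell samples were unlike each other. This spread enters every β cell test and the No Dox tests of MΦs against ECs, which share a fit with β cells.

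*Lgals3* was an example. Its No Dox scores were 3, 1, 178, and 238, its 1wk Dox scores 205, 179, 187, 311, and 159, and its 1wk WD scores 745, 427, and 292. The 1wk WD samples lay above all No Dox samples, of which replicates 1 and 2 were far below the others (4.23, SE 1.46, adjusted p = 0.57, limma). The difference was 3.03 without No Dox replicate 2 and 5.33 without replicate 4. *Apoe* likewise was 168, 19, 1629, and 5274 at No Dox and 1742, 2050, and 2003 at 1wk WD (2.22, SE 1.41, adjusted p = 0.649, limma), a difference of 0.77 without No Dox replicate 2 and 3.45 without replicate 4.

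The same samples stood apart in markers of other cells. Pericyte and stromal genes summed to 990 and 1120 in No Dox replicates 1 and 2, and to 138413 and 497849 in replicates 3 and 4. In 1wk Dox samples their sum was 95387 to 462288, and in 1wk WD samples 22849 to 308462. Macrophage genes summed to 1271, 688, 3114, and 6136 in the No Dox samples. Their sum was 1712 to 5311 with Dox and 5129 to 8609 after withdrawal. *Gpnmb* was at 1 in the same No Dox replicates 1 and 2 and at 147 and 323 in replicates 3 and 4. *Cd9* was 56, 87, 441, and 1238, and *Spp1* 150, 21, 1334, and 1268, in that order of replicates. Acinar genes summed to 619870, 27234, 10637080, and 8090644 in No Dox replicates 1 to 4, and β cell genes to 8675620, 5546741, 1657951, and 629168. The acinar sum was 295 to 18486 with Dox, below every No Dox sample, and 317 to 486616 after withdrawal. Endothelial genes summed to 1654 to 7559 at No Dox, 1550 to 57073 with Dox, and 4440 to 17509 after withdrawal. The part of these markers in the β cell values was not tested.

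The β cell scores were also set against those of MΦs. In No Dox β cells *Apoe* stood at 0.0277% to 7.7% of the mean MΦ score, and *Spp1* at 3.34% to 212%. *Trem2* and, in replicates 1 and 2, *Gpnmb* were too near the lowest score for a ratio.

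*Abca1* and *Abcg1* were well above the lowest score in all β cell samples. *Abca1*, at 16990, 17221, 8629, and 6766 before Dox, scored 5736, 7099, 7235, 3081, and 9291 with it and 5245, 8090, and 13603 after withdrawal. The samples overlapped, at -0.91 for 1wk Dox (SE 0.40, adjusted p = 0.708, limma) and -0.46 for 1wk WD (SE 0.46, adjusted p = 0.757, limma). *Abcg1* was 2078, 1623, 2024, 1291, and 1828 at 1wk Dox against 1675, 1449, 910, and 1087 (0.49, SE 0.22, adjusted p = 0.714, limma). The MΦ response minus the β cell response was not counted for any of the 9 genes by limma, beside 0% of genes for Dox and 0.0119% for withdrawal. At an unadjusted p under 0.05 it gave 1 and 2 members, beside 5.6% and 8.44% of genes. *Trem2* passed the filter in this comparison through MΦs.

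**Figure D5:**
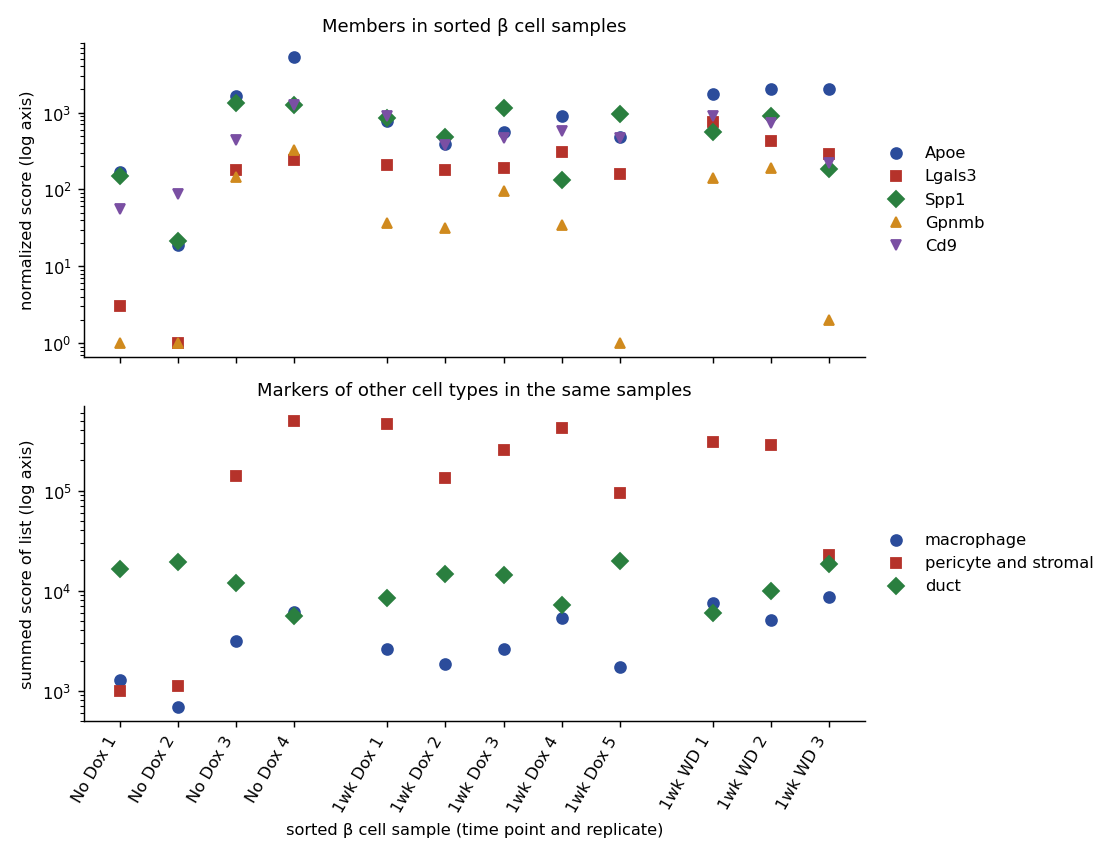
Upper panel, normalized score (log axis) of *Apoe*, *Lgals3*, *Spp1*, *Gpnmb*, and *Cd9* in each of the 12 sorted β cell samples. Lower panel, summed score (log axis) of macrophage, pericyte and stromal, and duct marker lists in the same samples: No Dox replicates 1 and 2 are lowest for *Lgals3* (3 and 1) and for pericyte and stromal markers (990 and 1120).

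Across the 32 samples, the genes most like *Trem2* on the log2(score + 1) scale were *Sirpb1c* (Pearson r = 0.987), *Ccl12* (0.986), and *Slc13a3* (0.985). Those most like *Gpnmb* were *2810055G20Rik* (0.926), *Hgf* (0.912), and *Gm10212* (0.903). For *Spp1* the values were lower, with *Fat3* (0.816) and *Ccl11* (0.81). The search covered 16968 genes, and many of the samples share a cell type, so these values are a description.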

How the data were processed

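RNA of sorted islet cells (MΦs, ECs, and β cells) was amplified (NuGEN Ovation) and read as 50 bp pairs. The authors aligned the reads to mm9 with TopHat2 (2.0 in the submitters' processing notes) and normalized each gene by TMM in Avadis NGS. The deposited scores are these normalized values as whole numbers, never below 1. Reads cannot be recovered from them, so depth per sample is unknown and no counting interval is given. Amplification and pooling of mice can add spread, and methods and labels differ on RNA integrity and fragment size.

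Of 38 columns, 32 were matched to samples by their labels. The other 6, of another series, are ECs and MΦs at 1wk Dox and were not used, so those groups are smaller here than in the table. 1 label spells β cells as Bets. The columns of the 1wk Dox ECs and MΦs used, and of 1wk WD β cell replicate 3, carry numbers from a separate run. The tests were two-sided limma fits (3.58.1, R 4.3.3, with trend) to log2(score + 1) of every gene whose mean reached 20 in some group, on the whole table. MΦ and β cell fits took 3 time points, the EC fit No Dox and 1wk WD, and the cell type fit all No Dox samples. Alternatives were other pseudocounts (0.1 and 20), no filter, a minimum of 200, 2 other scalings, no trend, any fold, the replicate number as a block, only the 2 groups compared, and leaving out each sample. Leaving out 2 acinar-rich samples was added after seeing the data. The fits were tested on simulated data. Python 3.11.15, pandas 2.3.3, numpy 2.4.6, and matplotlib 3.10.9 were used for lists, promoters, and figures.

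The members and all gene lists were chosen with earlier results of these data known. Named besides the 9 genes are related genes counted in an MΦ or EC comparison, at most 4 per list by the size of the MΦ 1wk Dox difference, and the 3 genes most like each of *Trem2*, *Gpnmb*, and *Spp1*, of which 1 is not reported here. *Mmp12* and *Axl* were named after their values were seen.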

Additional observations from a re-analysis of the deposited data

Results flagged for a closer look

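In 53 groups of 4 or more samples, 5 held a sample whose gap to the rest was large for the range of its group by Dixon's criterion, which chance alone gives in about 1 of 20 groups. *Gpnmb* was picked out in 3 of them: at 183 in No Dox MΦ replicate 1, where the others were 70 to 78, at 1 in 1wk Dox β cell replicate 5, where the others were 31 to 94, and at 18 in 1wk WD EC replicate 4, where the others were 1 or 2. *Trem2* was 15 in No Dox β cell replicate 4, where the others were at 1. *Plin2* was 170 in 1wk Dox β cell replicate 5, where the others were 530 to 697. The same β cell sample thus held the lowest value for *Gpnmb* and *Plin2*. No cause was tested.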

How the results depend on the processing

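The count of members called was 1 in ECs at 1wk WD whichever sample was left out, and moved in MΦs. In β cells it was 0, where 0 to 2 of all genes were called, so it is not read as stable. At 1wk Dox against No Dox the count of 1 became 2 with quantile normalization and without the 2 acinar-rich No Dox samples, 4 at any fold, and 0 with no trend, with the 2 groups alone, and with the replicate number as a block, and ran from 0 to 2 as single samples were left out. *Lgals3* then had adjusted p of 0.0658 (no trend), 0.052 (2 groups), and 0.228 (block). At 1wk WD against No Dox the count of 0 became 1 with quantile normalization (*Apoe*, 1.12, adjusted p = 0.0154), at any fold, and without the acinar-rich samples. At 1wk WD against 1wk Dox the count of 1 became 0 with a pseudocount of 20, with no filter, with no trend, and with the block, and ran from 0 to 1 as samples were left out. In the lone EC sample at 1wk Dox the count past 2-fold ran from 0 to 1, and was 1 without No Dox replicate 1. The cause of these moves was not tested. Whether replicate numbers pair the samples could not be told, because they come from the sample titles and the column labels number some samples otherwise. Of same-numbered pairs, 1 of 6 in MΦs, 2 of 4 in ECs, and 3 of 10 in β cells deviated together at r over 0.1. Between cell types at No Dox 2 of 12 pairs did, with a highest r of 0.384. The block is not read as a weaker effect. It changed no other count of members, and left 0 of the 14 related genes called at 1wk Dox in MΦs.

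No called value of the 9 members, or of the related genes called, changed sign under any alternative run. Uncalled differences did, in 12 settings. With pseudocount 20 they were -0.46 for *Gpnmb* in β cells at 1wk Dox, -0.26 for *Lgals3* in ECs against β cells, 0.13 for the *Apoe* response difference of MΦs minus β cells at 1wk Dox, and 0.30 for that of *Gpnmb* at 1wk WD. With quantile normalization they were -0.12 for *Abca1* in MΦs against β cells, 0.51 for *Trem2* in ECs against β cells (0.036 with pseudocount 0.1), and 0.011 and 0.52 for the *Spp1* and *Apoe* response differences at 1wk Dox. With the block they were -0.047 for *Spp1* in MΦs at 1wk Dox and 0.36 for *Cd9* in β cells at 1wk WD against 1wk Dox, and with median-of-ratios scaling -0.017 for *Abcg1* in MΦs at 1wk Dox.

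Leaving out single samples turned the sign of 22 uncalled differences. In MΦs these ran from -0.027 to 0.039 for *Abcg1* at 1wk Dox, from -0.23 to 0.0045 for *Lgals3* at 1wk WD, and from -0.35 to 0.022 for *Plin2* at 1wk WD against 1wk Dox. In ECs they ran from -0.66 to 1.22 for *Spp1* and from -0.17 to 0.064 for *Abcg1* at 1wk WD. In β cells at 1wk Dox they ran from -0.93 to 1.51 for *Gpnmb*, -0.17 to 1.81 for *Spp1*, and -0.93 to 1.75 for *Apoe*, at 1wk WD from -0.084 to 2.97 for *Gpnmb* and -0.47 to 1.50 for *Spp1*, and between these time points from -0.21 to 2.77 for *Gpnmb*, -0.83 to 0.34 for *Spp1*, and -0.40 to 0.61 for *Cd9*. Between cell types they ran from -0.31 to 1.66 for *Spp1* in MΦs against β cells, and in ECs against β cells from -0.35 to 0.65 for *Trem2* and -0.48 to 1.82 for *Lgals3*. Response differences ran from -0.035 to 1.11 for *Gpnmb* (MΦs minus ECs), and for MΦs minus β cells from -1.05 to 0.92 for *Spp1*, -1.33 to 1.35 for *Apoe*, and -0.89 to 0.20 for *Plin2* at 1wk Dox, and from -2.30 to 0.75 for *Gpnmb* and -0.24 to 0.054 for *Abcg1* at 1wk WD. *Gpnmb* in MΦs against β cells was counted without β cell No Dox replicate 4 (3.50, adjusted p = 0.0352), in ECs against β cells without β cell No Dox replicate 1 or 2 (EC scores of 1 to 3), where *Apoe* was counted without replicate 2 (-2.92, adjusted p = 0.0175) and the count of members ran from 4 to 6, and *Spp1* in MΦs against ECs with the 2 groups alone (2.81, adjusted p = 0.0467).

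Quantile normalization moved the median of all genes at No Dox from -0.07 to 0.17 for ECs against β cells and from -0.12 to 0.05 for MΦs against β cells, and the share of called genes that were higher from 43.8% to 55.4% and from 45.5% to 52.9%. Depth is unknown, so scores near 1 are not read as absence.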
